A study of Mus musculus with 24 samples.

Results

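The 10 Toll-like receptor genes Tlr1, Tlr2, Tlr3, Tlr4, Tlr5, Tlr6, Tlr7, Tlr8, Tlr9 and Tlr13 were examined in 4 tissues of young and aged mice. They were 10 of the 22911 gene symbols that the probes of the array could be matched to, and 16 of its 56605 probes belonged to them. A probe was assigned to a gene when its transcript accession, without the version, carried that symbol in RefSeq, and the brightest probe stood for the gene. The series compared C57BL/6J male mice at 10 weeks of age (10W, young) and 90 weeks of age (90W, aged), with no genetic change or treatment named in the labels. White adipose tissue (WAT), liver, kidney and lung were each measured on 3 one-colour Agilent arrays per age, 24 arrays in 8 groups, and the aged livers carried the numbers 1, 2 and 4. The fat depot was not named. The question that the design put to these genes was whether their transcripts differed between the ages in each tissue.

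Toll-like receptors are membrane proteins that recognise conserved parts of microbes and some products of damaged cells. Tlr1, Tlr2, Tlr4, Tlr5 and Tlr6 sit mainly at the cell surface, where Tlr2 pairs with Tlr1 or Tlr6 to bind lipoproteins, Tlr4 binds lipopolysaccharide together with Ly96, and Tlr5 binds flagellin. Tlr3, Tlr7, Tlr8, Tlr9 and Tlr13 act in endosomes and sense nucleic acids, namely double-stranded RNA (Tlr3), single-stranded RNA (Tlr7 and Tlr8), DNA with unmethylated CpG (Tlr9) and bacterial ribosomal RNA (Tlr13). They signal through the adaptors Myd88 or Ticam1 to NF-kappa B and interferon regulatory factors, and macrophages, dendritic cells and B cells carry many of them.

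Promoters from RefSeq (GRCm38.p6), which reach from before to just after the start of transcription, were found for 8 of the 10 genes, 10 promoters in all, with none for Tlr4 and Tlr7. They were searched on both strands for GAGGAAG, the core bound by PU.1, a transcription factor of myeloid and B cells, for GAAANNGAA, an interferon response type motif, and for GGGANTTTC, a kappa B type motif. GAGGAAG was found in 3 of the 10 promoters and in 13.6% of all 32851, GAAANNGAA in 2 and in 8.56%, and GGGANTTTC in 1 and in 1.11%. The promoters of Tlr1, Tlr6 and Tlr13, the genes called higher with age in every tissue, and of Tlr9, the gene called lower in 3, are shown, each 5′ to 3′ on the strand of the gene, with the motif letters in capitals. The Tlr1 promoter lies at chr5:64933509-64933808 on the minus strand and holds GAGGAAG 23 bases before the start. The Tlr6 promoter lies at chr5:64959117-64959416 on the minus strand and holds a pair of overlapping GAAANNGAA matches on the opposite strand, the first 115 bases before the start. The Tlr13 promoter lies at chrX:106143025-106143324 on the plus strand and holds GAGGAAG 83 bases before the start. The Tlr9 promoter lies at chr9:106222348-106222647 on the plus strand and holds GAGGAAG 112 bases before the start and once more, on the opposite strand, just after it. Tlr1 and Tlr6 each have another listed start whose promoter held none of the motifs. A match describes the letters only.
Tlr1: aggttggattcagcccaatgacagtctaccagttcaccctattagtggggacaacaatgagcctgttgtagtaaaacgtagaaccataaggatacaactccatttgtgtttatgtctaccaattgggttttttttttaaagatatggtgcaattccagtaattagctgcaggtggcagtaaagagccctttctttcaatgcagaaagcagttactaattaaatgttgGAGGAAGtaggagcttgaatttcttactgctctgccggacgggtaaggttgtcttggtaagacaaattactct
Tlr6: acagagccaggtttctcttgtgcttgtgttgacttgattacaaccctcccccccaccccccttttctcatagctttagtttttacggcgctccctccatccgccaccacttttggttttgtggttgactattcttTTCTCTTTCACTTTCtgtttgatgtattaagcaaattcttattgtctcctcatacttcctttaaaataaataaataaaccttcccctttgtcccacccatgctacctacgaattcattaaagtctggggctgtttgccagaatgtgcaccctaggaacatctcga
Tlr13: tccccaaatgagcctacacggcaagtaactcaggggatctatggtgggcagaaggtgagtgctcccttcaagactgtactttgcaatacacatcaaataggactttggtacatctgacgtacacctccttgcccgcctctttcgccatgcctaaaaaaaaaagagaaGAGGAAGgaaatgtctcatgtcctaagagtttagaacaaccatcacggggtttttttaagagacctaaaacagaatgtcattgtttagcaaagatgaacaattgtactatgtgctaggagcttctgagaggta
Tlr9: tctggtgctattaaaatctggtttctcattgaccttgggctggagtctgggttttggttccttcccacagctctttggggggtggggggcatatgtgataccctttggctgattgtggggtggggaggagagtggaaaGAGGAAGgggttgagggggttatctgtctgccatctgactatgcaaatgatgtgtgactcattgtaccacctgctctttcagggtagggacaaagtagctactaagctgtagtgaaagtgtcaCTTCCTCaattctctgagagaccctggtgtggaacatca

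Values are log2 of the processed signal minus the 75th percentile of the array, so that 0 is a signal brighter than that of 75% of the probes, and a probe counts as measured where it was well above background. Between 58.6% and 71.1% of probes were well above background on an array, and the 75th percentile of the raw signal ran from 259 to 956. Each tissue showed its own markers well above background on all arrays, such as Alb in liver, Sftpc in lung, Umod in kidney and Adipoq in WAT. Within a group, 22 pairs of arrays correlated at 0.979 to 0.995 over all probes, whereas the pairs that hold the young WAT replicate 1 reached 0.942 and 0.951. That array stands apart: the summed signal of 8 genes of the epididymis, chosen after the data were seen, was 1290 on it and 0.0505 to 1.56 on the other 23 arrays, and its summed macrophage markers were 61.6 where the other young WAT arrays had 192 and 151. Results for WAT are therefore also given without it. Heart muscle markers were present in lung and varied there (summed signal 52.1 to 161 in young and 5.37 to 85.0 in aged lungs), and neutrophil markers were far higher on the second array than on the others in aged liver (1572, against 28.2 and 19.9) and aged lung (1390, against 302 and 158), and on the third in aged WAT (957, against 7.15 and 75.5). Liver cell markers summed to 126 on the first aged lung array, against 3.15 and 2.13 on the other aged lungs. That array also had the lowest share of probes well above background in lung, 59.5%. The part of these differences in the results was not tested. Each tissue lies on a slide and a scan of its own, so tissue and slide cannot be told apart, and the labels do not say whether several tissues came from 1 mouse. In bulk tissue, fewer cells of a type and less RNA per cell cannot be told apart.

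Tlr1, Tlr6 and Tlr13 were called higher in the aged mice in all 4 tissues. Tlr2 and Tlr4 were called higher in liver and kidney, Tlr3 in kidney alone and Tlr8 in WAT. Tlr9 was called lower in liver, kidney and WAT, and Tlr7 lower in kidney by its brightest probe. A second Tlr7 probe was called higher in kidney, by 3.0. Both kidney falls, -0.32 for Tlr7 and -0.28 for Tlr9, lay near the kidney median of all genes, -0.23. With spike-in scaling they became 0.067 and 0.11. In liver 5 of the 9 genes tested were called higher and 1 lower, where 10.5% of all genes were called higher and 17.0% lower (limma, Benjamini-Hochberg adjusted p under 0.05 over all genes of the tissue). In lung 3 of 9 were called higher and 0 lower (0 also at an unadjusted p under 0.05), against 2.72% and 2.89% of all genes. Kidney had 6 of 9 higher and 2 lower, against 20.6% and 42.6%, and WAT had 4 of 10 higher and 1 lower, against 2.01% and 0.579%. Tlr8 did not pass the filter on dim probes in liver, lung and kidney. The median log2 change over all genes was -0.20 in liver, -0.08 in lung, -0.23 in kidney and -0.05 in WAT. Without the young WAT replicate 1, 2 genes were called higher in WAT (Tlr8 and Tlr13) and 0 lower.

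**Figure D1:**
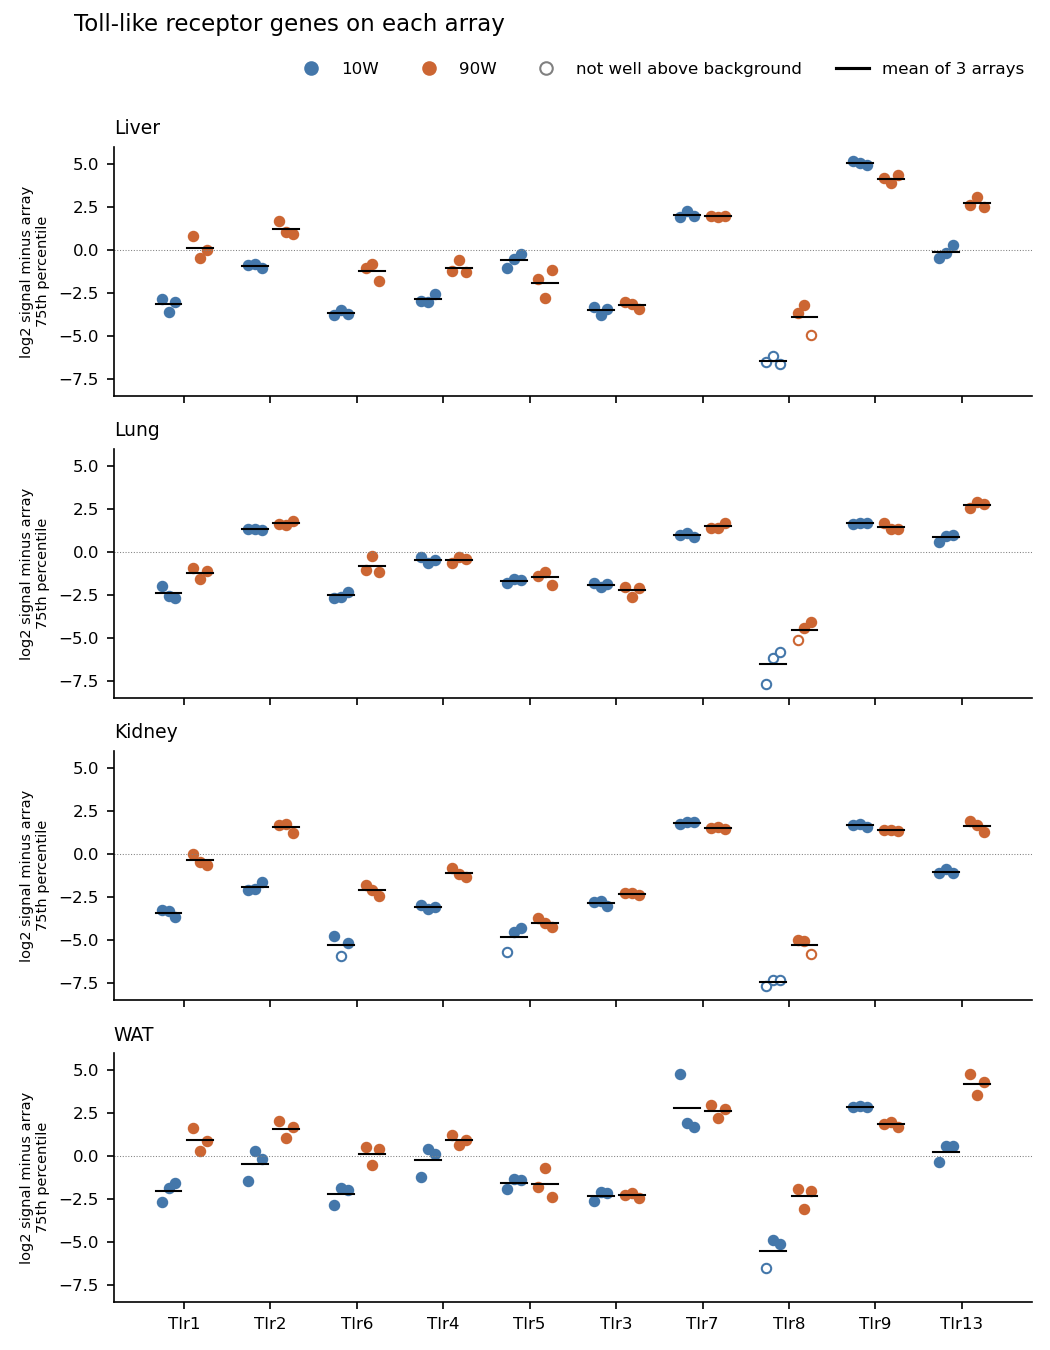
Signal of the 10 genes on each of the 24 arrays, as log2 signal minus the 75th percentile of the array (y axis) by gene (x axis), with 1 panel per tissue, filled points well above background and bars for the mean of 3 arrays. Aged values of Tlr1, Tlr6 and Tlr13 lie above the young ones in each panel, and the young WAT array with Tlr7 at 4.76 stands away from the others.

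Tlr1, which recognises triacylated lipoproteins as the partner of Tlr2, was higher in each aged tissue. In liver the young arrays gave -2.87, -3.59 and -3.02 and the aged ones 0.82, -0.48 and -0.01. In kidney they gave -3.27, -3.33 and -3.65 against 0.01, -0.43 and -0.65. No aged array of these organs overlapped a young one, and the rises were 9.62-fold in liver (log2 change 3.27, SE 0.36, adjusted p = 0.00287) and 8.33-fold in kidney (3.06, SE 0.20, adjusted p = 0.000121). Lung values were -2.0, -2.55 and -2.68 in young and -0.93, -1.56 and -1.10 in aged mice, and WAT values -2.69, -1.87 and -1.57 in young and 1.64, 0.28 and 0.89 in aged mice. The ages did not overlap here either, and the rises were 2.32-fold in lung (1.21, SE 0.24, adjusted p = 0.0466) and 7.88-fold in WAT (2.98, SE 0.44, adjusted p = 0.031). Without the young WAT replicate 1 the WAT change was 2.66 and missed the threshold (adjusted p = 0.0536). The other probe of Tlr1 followed the first over the 24 arrays (Pearson r = 1.00) and was called higher in each tissue.

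Tlr6, the partner of Tlr2 for diacylated lipoproteins and the neighbour of Tlr1 on chromosome 5, behaved in the same way. In kidney the young arrays read -4.78, -5.91 and -5.18, the second of them not well above background, and the aged arrays -1.80, -2.10 and -2.42. In liver the values were -3.78, -3.51 and -3.71 in young and -1.05, -0.83 and -1.81 in aged mice. Both sets were fully separated, with a 9.07-fold rise in kidney (3.18, SE 0.31, adjusted p = 0.00045) and 5.43-fold in liver (2.44, SE 0.27, adjusted p = 0.00294). Young lungs had -2.65, -2.59 and -2.30 and aged lungs -1.07, -0.25 and -1.14, a 3.24-fold rise (1.69, SE 0.26, adjusted p = 0.0261). In WAT, -2.81, -1.84 and -1.95 in young mice stood against 0.51, -0.51 and 0.40 in aged mice, 5.03-fold (2.33, SE 0.39, adjusted p = 0.0424). Without the young WAT replicate 1 this was 2.02 (adjusted p = 0.0661).

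Tlr2, the receptor that both of these pair with, was called higher in liver and kidney. The young kidneys had -2.06, -2.04 and -1.63 and the aged ones 1.69, 1.75 and 1.23, an 11.05-fold rise (3.47, SE 0.19, adjusted p = 7.01e-05). In liver, -0.88, -0.81 and -1.08 stood against 1.66, 1.05 and 0.94, a 4.40-fold rise (2.14, SE 0.22, adjusted p = 0.00261). Lung differed: the young lungs were already at 1.36, 1.33 and 1.28, and the aged lungs at 1.63, 1.56 and 1.80. These did not overlap, yet the difference of 0.34 did not pass (SE 0.10, adjusted p = 0.0958). In WAT the young values were -1.44, 0.30 and -0.17 and the aged ones 2.02, 1.08 and 1.72, again without overlap and with a difference of 2.04 that did not pass (SE 0.50, adjusted p = 0.101). The low young value is the array that stands apart, and without it the difference was 1.54 (adjusted p = 0.0976).

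Tlr4, the lipopolysaccharide receptor, was called higher in liver and kidney as well. Its values were -2.99, -3.02 and -2.58 in young and -1.21, -0.61 and -1.26 in aged livers, a 3.58-fold rise (1.84, SE 0.23, adjusted p = 0.00419). In kidney they were -2.95, -3.19 and -3.07 in young and -0.79, -1.17 and -1.36 in aged mice, a 3.90-fold rise (1.97, SE 0.16, adjusted p = 0.000268). Young and aged lungs overlapped, at -0.29, -0.66 and -0.47 and at -0.64, -0.26 and -0.43, with a difference of 0.02 (SE 0.15, adjusted p = 0.929) that turned to -0.076 with spike-in scaling. In WAT -1.23, 0.42 and 0.11 in young stood beside 1.22, 0.64 and 0.95 in aged mice, a difference of 1.17 (SE 0.45, adjusted p = 0.238) and of 0.67 without the young WAT replicate 1 (adjusted p = 0.208).

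Tlr5, the flagellin receptor, passed the test in no tissue (limma; unadjusted p = 0.0171 in liver and 0.0594 in kidney, and 0.374 and 0.867 in lung and WAT). It was called in 3 of 17 alternatives in liver and 2 of 17 in kidney. Young livers had -1.03, -0.52 and -0.21 and aged livers -1.72, -2.80 and -1.19, with no overlap and a difference of -1.31 (SE 0.42, adjusted p = 0.0567). Kidney lay the other way, at -5.67, -4.53 and -4.31 in young, the first of them not well above background, and at -3.72, -3.99 and -4.26 in aged mice, a difference of 0.85 (SE 0.37, adjusted p = 0.0865). In lung (-1.78, -1.57 and -1.65 in young, -1.38, -1.15 and -1.89 in aged) and WAT (-1.88, -1.33 and -1.40 in young, -1.77, -0.71 and -2.35 in aged) the ages overlapped.

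**Figure D2:**
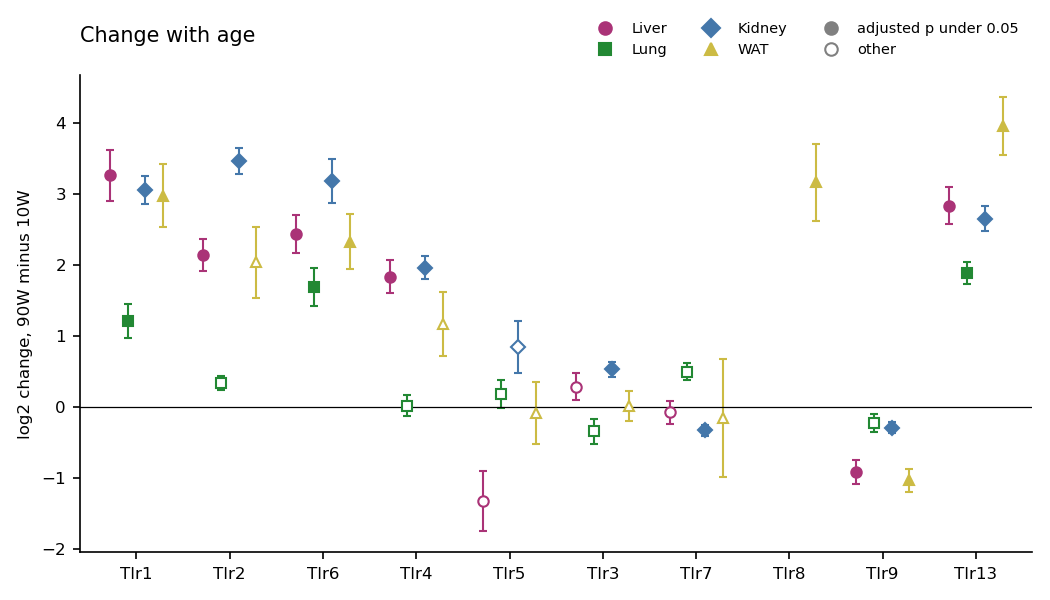
Log2 change from 10W to 90W (y axis) of each gene (x axis) in each tissue, with bars for the standard error from limma (3 arrays per age) and filled symbols for adjusted p under 0.05. Tlr13 in WAT has the highest value, 3.96, and Tlr9 lies below 0 in the 4 tissues.

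Among the nucleic acid sensors, Tlr13, which binds bacterial 23S ribosomal RNA, rose in each tissue. The young WAT arrays gave -0.36, 0.57 and 0.59 and the aged ones 4.79, 3.57 and 4.32, a 15.6-fold rise (3.96, SE 0.41, adjusted p = 0.0108). This held without the young WAT replicate 1 (3.65, adjusted p = 0.0214). Liver values were -0.44, -0.16 and 0.31 in young and 2.64, 3.09 and 2.50 in aged mice, 7.16-fold (2.84, SE 0.25, adjusted p = 0.0018). Kidney values were -1.10, -0.88 and -1.08 against 1.93, 1.71 and 1.27, 6.31-fold (2.66, SE 0.18, adjusted p = 0.000148). The lungs, at 0.60, 0.94 and 1.01 in young and 2.53, 2.90 and 2.80 in aged mice, gave 3.72-fold (1.90, SE 0.16, adjusted p = 0.0106). The groups were separate in all 4 tissues, and the dimmer probe of Tlr13 followed the brighter one over the 24 arrays (r = 0.99).

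Tlr8, a sensor of single-stranded RNA, was dim. On the young arrays of liver, lung and kidney it was never well above background, and it was measured on 2 of 3 aged arrays of each. The means of the signals as read, young then aged, were -6.44 and -3.92 in liver, -6.54 and -4.54 in lung, and -7.42 and -5.29 in kidney, and the young ones are bounds only. With young values raised to the lowest signal that counted as measured on their array, the aged mean was 1.55-fold higher in liver, 2.45-fold in lung and 1.11-fold in kidney. The aged means hold an array in each tissue that was itself not well above background, so these folds are no strict bounds. With no filter on dim probes the adjusted p of limma was 0.0272, 0.157 and 0.00144. In WAT, where the young arrays read -6.52, -4.86 and -5.10, the first not well above background, and the aged ones -1.88, -3.08 and -2.01, it rose 9.0-fold (3.17, SE 0.54, adjusted p = 0.044). Without the young WAT replicate 1 the change was 2.66 (adjusted p = 0.0498).

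Tlr3, the sensor of double-stranded RNA, was called in kidney. Young kidneys had -2.77, -2.71 and -3.01 and aged kidneys -2.24, -2.25 and -2.40, a 1.45-fold rise (0.54, SE 0.11, adjusted p = 0.00604). Its other probe gave 0.45 there and missed the threshold (adjusted p = 0.0516), and the probes correlated weakly over the 24 arrays (r = 0.35). In liver the other probe was the brighter one and gave the values here (its partner changed by 0.22 there, adjusted p = 0.457). In liver (-3.33, -3.77 and -3.41 in young, -3.03, -3.17 and -3.43 in aged), lung (-1.80, -2.04 and -1.85, then -2.03, -2.60 and -2.07) and WAT (-2.63, -2.09 and -2.16, then -2.23, -2.17 and -2.43) the ages overlapped. The differences of 0.29, -0.34 and 0.02 did not pass (adjusted p = 0.279, 0.276 and 0.971).

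Tlr9, which senses CpG DNA, was the gene that was called lower in several tissues. Its 1 probe was bright in young liver, at 5.17, 5.05 and 4.96, and read 4.19, 3.91 and 4.35 in aged liver, 1.88-fold lower (-0.91, SE 0.17, adjusted p = 0.0136). With spike-in scaling the change was -0.80 and missed the threshold (adjusted p = 0.16), as it did without young replicate 1 (-0.86, adjusted p = 0.0507) or young replicate 2 (-0.91, adjusted p = 0.0568). In WAT the young arrays lay close together at 2.87, 2.91 and 2.86 and the aged ones at 1.90, 1.97 and 1.69, 2.04-fold lower (-1.03, SE 0.16, adjusted p = 0.0347). The array that stands apart did not set that value, since without it the change was again -1.03, but with 2 young arrays it missed the threshold (adjusted p = 0.0603). Kidney moved little, from 1.68, 1.78 and 1.59 to 1.42, 1.40 and 1.37 (-0.28, SE 0.08, adjusted p = 0.0225), and with spike-in scaling its change was 0.11. Lung overlapped, at 1.62, 1.68 and 1.70 in young and 1.68, 1.34 and 1.33 in aged mice (-0.22, SE 0.12, adjusted p = 0.298).

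Tlr7, the other sensor of single-stranded RNA, depended on the probe. By its brightest probe the young kidneys had 1.75, 1.88 and 1.89 and the aged ones 1.51, 1.56 and 1.49, a change of -0.32 (SE 0.08, adjusted p = 0.0125), which was 0.067 with spike-in scaling. The young livers had 1.90, 2.26 and 1.96 and the aged livers 1.97, 1.94 and 2.0, which overlap (-0.07, adjusted p = 0.763), and the lungs read 0.97, 1.13 and 0.89 against 1.42, 1.40 and 1.67 (0.50, SE 0.12, adjusted p = 0.068). In WAT the young values of 4.76, 1.93 and 1.70 spanned the aged ones of 2.96, 2.22 and 2.77, with a difference of -0.15 that became 0.83 without the young replicate 1 (adjusted p = 0.942 and 0.181). The second probe, of the same transcript accession, gave other values. It read -3.62, -3.59 and -3.79 in young and -0.58, -0.70 and -0.70 in aged kidneys, and -2.33, -2.96 and -2.28 in young and 0.08, 0.60 and 0.38 in aged livers. It was thus 3.0 higher in aged kidney (SE 0.09, adjusted p = 1.45e-05 over all probes that passed the filter) and 2.88 higher in aged liver (SE 0.24, adjusted p = 0.00139), where 20.5% and 10.2% of probes were called higher. In lung it went from -1.61, -1.23 and -1.45 to -0.43, -0.70 and 0.19 (1.11, SE 0.25, adjusted p = 0.058), and in WAT from -2.35, -0.49 and -0.66 to 2.07, 0.76 and 1.99 (2.77, SE 0.61, adjusted p = 0.0784), which did not pass, where 2.70% and 1.97% of probes were called higher. Over the 24 arrays the probes correlated at r = 0.09. The second probe followed Tlr13 (r = 0.95), Tlr6 (0.94), Tlr8 (0.93) and Tlr1 (0.92), whereas the brightest lay at 0.05 to 0.22 with the same genes. These r values describe arrays that share tissues and ages. One more probe, of another transcript accession, was nowhere well above background. Which of the probes reads Tlr7 was not tested.

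**Figure D3:**
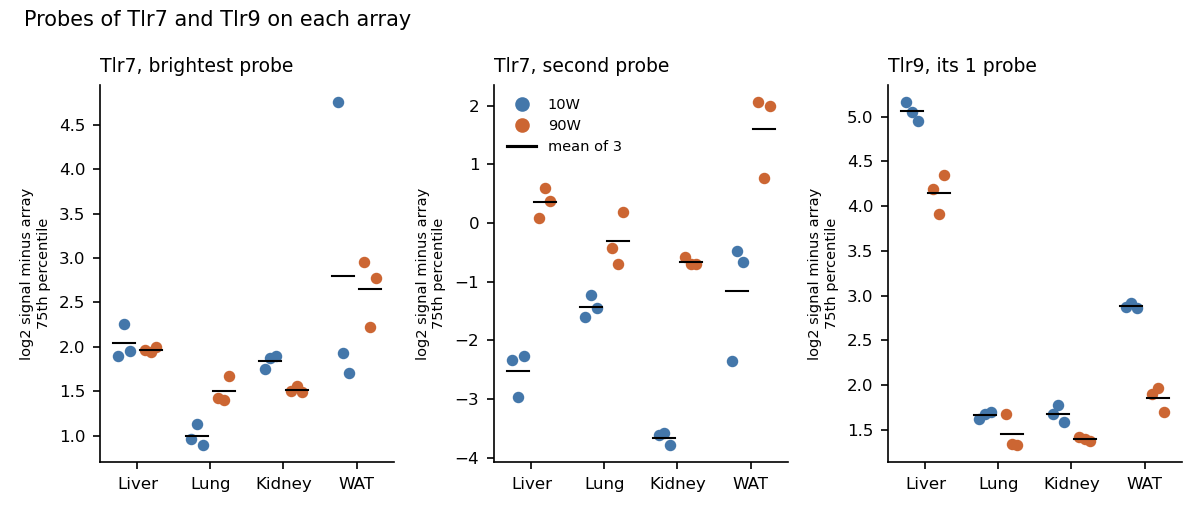
Log2 signal minus the array's 75th percentile (y axis) of the brightest and the second probe of Tlr7 and of the probe of Tlr9 on the 24 arrays by tissue (x axis), with bars for the mean of 3 arrays; the y axes do not start at the same value. Aged values of the second Tlr7 probe lie above the young ones in each tissue, while the brightest Tlr7 probe overlaps between the ages in liver and WAT.

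Leaving out arrays showed which calls rest on 1 of them. In lung, 0 genes were called higher without young replicate 1 or young replicate 2, 1 without young replicate 3 and 2 without aged replicate 1 or 3. In WAT, 1 gene was called higher without young replicate 2, young replicate 3 or aged replicate 2 and 0 without aged replicate 1 or 3, and the call of Tlr9 was lost each time. Liver Tlr9 was lost without young replicate 1 or 2, and 1 of the 2 lower calls in kidney without young replicate 1, young replicate 2, aged replicate 2 or aged replicate 3. The 5 rises in liver were called whichever array was left out, and kidney had 6 or 7.

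In young mice the order of the tissues differed from gene to gene. The tests took all 24 arrays and 1 probe per gene, and between tissues most of all genes were called, so a call is no mark of these genes. Lung and liver differed in 7 of the 10, against 71.8% of all genes. Liver and kidney differed in 6 (54.1%), liver and WAT in 5 (65.8%), lung and kidney in 7 (61.8%), lung and WAT in 3 (51.6%) and kidney and WAT in 9 (54.3%). With spike-in scaling the medians of all genes between young tissues moved, from 0.44 to -0.96 for liver minus lung, and each difference with lung, large ones included, moved with them.

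Kidney had the lowest young level of 6 of the 10 genes (Tlr1, Tlr2, Tlr4, Tlr5, Tlr6 and Tlr13), and liver that of Tlr3 by the probe used here. Lung led for Tlr2, with 1.32 ± 0.04 (SD, n = 3), above WAT at -0.44 ± 0.90, liver at -0.92 ± 0.14 and kidney at -1.91 ± 0.24. Each step except that from WAT to liver passed the test, and lung exceeded kidney 9.38-fold (log2 difference 3.23, adjusted p = 8.6e-08; 4.20 with spike-in scaling). With that scaling the step from WAT to liver passed (adjusted p = 0.0463) and that from liver to kidney did not (adjusted p = 0.252). On the main scale the step from WAT to liver passed without the young WAT replicate 1 (liver minus WAT -0.99, adjusted p = 0.00243). Tlr13 also led in lung (0.85 ± 0.22), followed by WAT (0.27 ± 0.54), liver (-0.10 ± 0.38) and kidney (-1.02 ± 0.12), and of the neighbours in this order liver and kidney differed (adjusted p = 0.0131). With spike-in scaling they did not (adjusted p = 0.205), and the steps from lung to WAT (adjusted p = 0.000299) and from WAT to liver (adjusted p = 0.0337) were called instead. Tlr3 led in lung at -1.90 ± 0.12, WAT was next at -2.29 ± 0.29 with no call between them, and kidney (-2.83 ± 0.16) and liver (-3.51) lay below in steps that passed. With spike-in scaling lung and WAT were called apart (adjusted p = 0.00024) and kidney and WAT were not (adjusted p = 0.0997). The other Tlr3 probe gave another order below lung, with young means of -2.65 in lung, -3.50 in liver, -3.56 in WAT and -3.73 in kidney. Its steps between tissues were not tested.

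WAT and lung had the highest young levels of Tlr1, Tlr4 and Tlr6. Tlr4 was at -0.24 ± 0.88 in WAT and -0.47 ± 0.19 in lung, which were not called apart, and at -2.86 ± 0.25 in liver and -3.07 ± 0.12 in kidney, also not called apart. Lung and WAT were called apart without the young WAT replicate 1 (lung minus WAT -0.73, adjusted p = 0.0119). WAT exceeded kidney 7.13-fold (adjusted p = 3.55e-07) and lung exceeded liver 5.25-fold (liver minus lung -2.39, adjusted p = 1.41e-06; -3.79 with spike-in scaling). Tlr1 ran from -2.04 ± 0.58 in WAT over -2.41 ± 0.36 in lung and -3.16 ± 0.38 in liver to -3.42 ± 0.20 in kidney, with no call between neighbours, although lung and liver were called apart with spike-in scaling (adjusted p = 0.000272) and with quantile normalization (adjusted p = 0.0498). Tlr6 followed with -2.20 ± 0.53, -2.51 ± 0.19, -3.67 ± 0.14 and -5.29 ± 0.57 in the same order, where lung and liver (adjusted p = 0.00646) and liver and kidney (adjusted p = 0.000693) differed.

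Liver led for Tlr5 and Tlr9. Tlr5 was at -0.59 ± 0.41 in young liver and -4.84 ± 0.73 in young kidney, a difference of 4.25 (SE 0.42, adjusted p = 1.01e-07). WAT (-1.53 ± 0.30) and lung (-1.67 ± 0.10) lay between them and were not called apart. Liver and WAT were not called apart either (0.95, adjusted p = 0.0577, and 0.50, adjusted p = 0.36, with spike-in scaling). The higher level in liver than in lung (1.08, adjusted p = 0.0299) became -0.32 with spike-in scaling. Tlr9 was at 5.06 ± 0.11 in liver, 10.5-fold above lung (1.67 ± 0.04), 10.4-fold above kidney (1.68 ± 0.09) and 4.53-fold above WAT (2.88 ± 0.03), and each of these passed (adjusted p = 1.02e-13, 8.33e-14 and 3.65e-11). The log2 difference of liver and lung, 3.39, was 1.99 with spike-in scaling and 2.79 with quantile normalization, and that of liver and WAT, 2.18, was 1.73 and 1.63. WAT exceeded lung 2.32-fold (adjusted p = 2.23e-07, but 0.311 with spike-in scaling), and lung and kidney were called apart with spike-in scaling (0.96, adjusted p = 0.000748). Tlr8 was measured in young WAT alone, on 2 of 3 arrays. The brightest Tlr7 probe was at 2.80 ± 1.70 in WAT, 2.04 ± 0.19 in liver, 1.84 ± 0.08 in kidney and 1.00 ± 0.12 in lung, and WAT and lung were the 1 pair called apart (-1.80, adjusted p = 0.00459), also without the young WAT replicate 1 (-0.82) but not with spike-in scaling (-0.85, adjusted p = 0.133), which called liver and WAT apart (adjusted p = 0.0396). Without that array the counts of genes called between WAT and the other tissues were 7 for liver, 5 for lung and 9 for kidney. The second Tlr7 probe had another order, with young means of -1.17 in WAT, -1.43 in lung, -2.52 in liver and -3.67 in kidney.

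The change with age itself differed between tissues for several genes, by interaction contrasts of limma over the 24 arrays, in which the pairs of tissues share arrays. Lung was set apart from kidney in 5 genes, against 18.3% of all genes, and from liver in 4 (12.2%). Kidney and WAT differed in 3 (20.0%), liver and kidney in 2 (8.44%), lung and WAT in 2 (2.79%), and liver and WAT in 0 (14.4%, with an unadjusted p under 0.05 in 1 gene, Tlr13). On the log2 scale the Tlr2 change in lung minus that in kidney was -3.12 (SE 0.46, adjusted p = 0.000226), the change in liver exceeded that in lung by 1.80 (SE 0.46, adjusted p = 0.0161), and kidney exceeded WAT by 1.42 (SE 0.46, adjusted p = 0.0363). Tlr4 rose less in lung as well, with -1.94 for lung minus kidney (adjusted p = 0.005) and 1.81 for liver minus lung (adjusted p = 0.0111), and so did Tlr1, with -1.84 and 2.05 (adjusted p = 0.0194 and 0.0152). Tlr13 rose more in WAT than in lung, with a lung minus WAT difference of -2.06 (SE 0.42, adjusted p = 0.0118), or -1.75 without the young WAT replicate 1 (adjusted p = 0.0212). It also rose more in WAT than in kidney, with -1.30 for kidney minus WAT (adjusted p = 0.0358) and, without that array, -0.99, which did not pass (adjusted p = 0.0769). Without it liver and WAT differed in 2 genes, Tlr4 (1.17, adjusted p = 0.0143) and Tlr7 by its brightest probe (-0.90, adjusted p = 0.0129). Kidney and WAT then differed in 4, Tlr7 by that probe among them. The second Tlr7 probe changed by 2.88 in liver, 3.0 in kidney and 2.77 in WAT with all arrays. Its differences between tissues were not tested.

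Other genes of the pathway were taken from lists, described by counts. Of 14 accessory and trafficking genes, 6 of 13 tested were called higher in liver and 0 lower, 7 and 2 of 14 in kidney, 0 and 0 of 14 in lung and 2 and 0 of 14 in WAT, with median log2 changes of 0.77, 0.69, 0.08 and 0.55 in the same order. Over all genes the medians were -0.20, -0.23, -0.08 and -0.05, and the shares called higher and lower were 10.5% and 17.0% in liver, 20.6% and 42.6% in kidney, 2.72% and 2.89% in lung, and 2.01% and 0.579% in WAT, against which every list below is to be read. Cd14, the co-receptor that passes lipopolysaccharide to Tlr4, rose by 2.61 in liver (adjusted p = 0.0127) and 3.45 in kidney (adjusted p = 7.42e-05), whereas Ly96, the subunit of Tlr4 that binds it, was called in no tissue (-0.57, 0.15, 0.10 and -0.35 in liver, lung, kidney and WAT). Unc93b1, which carries the nucleic acid sensors to endosomes, rose by 1.23 in liver and 2.48 in kidney, and its values in lung and WAT were 0.47 and 1.72 without a call. Ly86, the partner of Cd180, rose by 2.25 in liver and 3.26 in kidney. Slc15a3, an endosomal transporter, rose by 1.41 in liver, 3.05 in kidney and 3.53 in WAT, and Rab7b, a small GTPase of late endosomes, by 2.31 in liver and 3.11 in kidney. Lbp, the plasma protein that binds lipopolysaccharide, rose by 2.69 in kidney, Cnpy4 by 0.64 in kidney and Cd180 by 1.33 in WAT. Cd36, a scavenger receptor, rose by 1.13 in liver and was -1.73 in kidney, and the chaperone Hsp90b1 was -0.33 in kidney, both called. Cnpy3 (-0.13, -0.04, -0.03 and 0.21 in the same order of tissues), Slc15a4 (0.33, 0.16, 0.07 and 0.74) and Tril were called in none.

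The adaptors moved less evenly. Myd88, which all of these receptors but Tlr3 use, was called higher in kidney alone (0.57, adjusted p = 0.0021), with 0.07 in lung and 0.08 in WAT. Tirap, which links Tlr2 and Tlr4 to Myd88, was higher in kidney (0.34), and Ticam1, the adaptor of Tlr3 and Tlr4, lower there (-0.54). Sarm1 was higher in liver and kidney (1.63 in both), and Pik3ap1 in WAT (3.04) and in kidney. In kidney Pik3ap1 was not well above background on any young array, so a rise was the only call open to it. The kidney count of adaptors holds it. Ticam2 was tested in WAT alone, with a change of 1.95 that did not pass (adjusted p = 0.118). In counts, 1 of 5 adaptors tested was called higher in liver, 0 of 5 in lung, 4 of 5 in kidney with 1 lower, and 1 of 6 in WAT, with medians of -0.27, 0.07, 0.57 and 0.35. Of the 5 endolysosomal proteases that process the nucleic acid sensors, 3 were called higher in liver, 0 in lung, 2 in kidney with 1 lower, and 3 in WAT (medians 1.53, 0.44, 0.10 and 2.25). Ctss rose by 2.18 in liver, 3.98 in kidney and 3.03 in WAT, and Ctsk by 2.01, 3.17 and 3.11.

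The 18 kinases and ubiquitin ligases between adaptors and transcription factors had 0 higher and 1 lower in liver, 0 and 1 in lung, 3 and 10 in kidney and 0 and 0 in WAT (medians -0.06, -0.04, -0.28 and 0.17). The kidney counts lie near the shares of all genes there, 20.6% higher and 42.6% lower, and its median near that of all genes, -0.23. In kidney Irak1 (-0.56) and Chuk (-0.94) were lower and Traf3 (0.72) and Ikbke (1.38) higher. Of 10 transcription factors, 5 were higher in liver, 1 in lung, 8 in kidney with 1 lower, and 1 in WAT (medians 0.64, 0.11, 1.41 and 0.38). Irf7, which acts after Tlr7 and Tlr9, rose by 1.90 in liver, 1.30 in lung and 2.16 in kidney. Of 14 inhibitors, 5 of 13 tested were higher in liver, 1 in lung, 10 in kidney with 2 lower, and 0 in WAT (medians 1.01, 0.16, 1.47 and 0.96). Irak3, which blocks Irak signalling, rose by 2.70 in liver and 2.50 in kidney, and Tnfaip3, a brake on NF-kappa B, by 2.48 in liver, 1.04 in lung and 2.15 in kidney.

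Of 16 target genes, 9 of 13 tested were called higher in liver with 1 lower, 4 of 14 in lung, 11 of 14 in kidney with 2 lower, and 3 of 15 in WAT (medians 1.83, 0.52, 2.93 and 1.49). On the young arrays, Il6, Il10, Cxcl2 and Ptgs2 in kidney and Il10, Cxcl2 and Ccl3 in liver were never well above background. Nor were Il10 and Cxcl2 in young lung. Such genes could pass the filter only through the aged arrays, so a rise was the only call open to them. The counts and medians hold those that passed. The chemokine Ccl4 rose in each tissue, by 3.61 in liver, 1.97 in lung, 2.67 in kidney and 4.87 in WAT. Ccl3 was called in each as well (2.05 in lung, 3.89 in kidney and 6.06 in WAT), and on young liver arrays it was never well above background. Il1b rose by 1.83 in liver, 1.95 in lung and 3.19 in kidney. Tnf was -0.53 in kidney, called lower, and its -1.07 in liver did not pass (adjusted p = 0.0512), and Ifnb1 was nowhere well above background. Tlr11 and Tlr12, further mouse receptors that were no members, were both called higher in liver, and in kidney Tlr11 was higher (1.80) and Tlr12 lower (-0.35). Tlr11 was not well above background on any young liver array, so a rise was the only call open to it in liver.

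**Figure D4:**
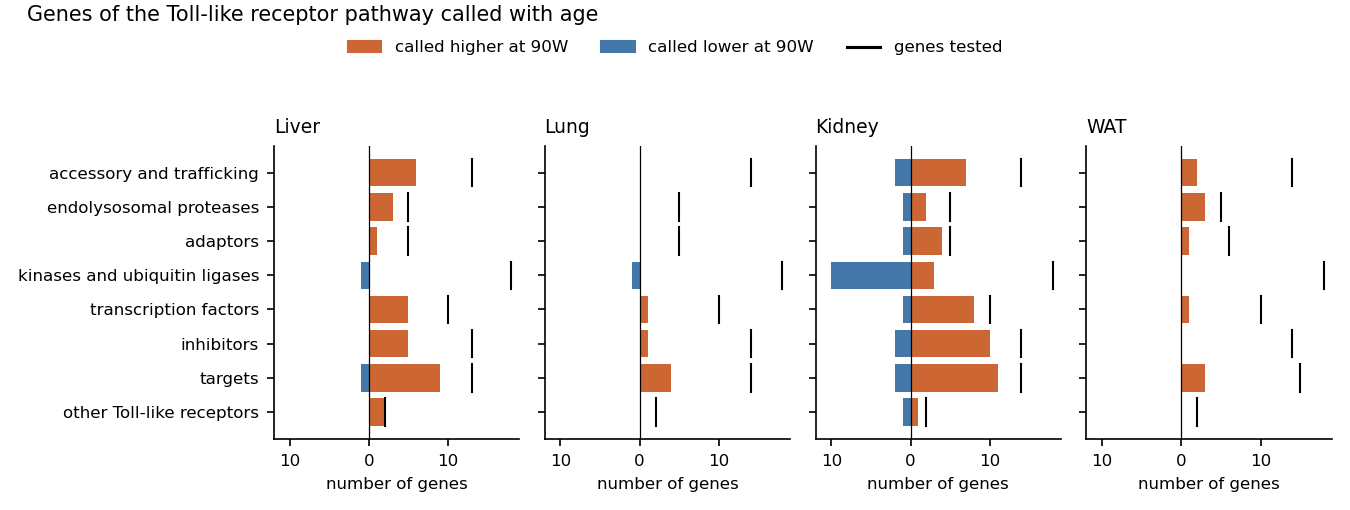
Number of genes of each pathway list (rows) called higher (right of 0) or lower (left of 0) at 90W in each tissue (panels), with a black line at the number tested; the x axis counts genes in both directions. Liver and kidney hold most of the calls, and lung has between 0 and 4 per list.

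Markers of leukocytes moved with age too. The summed signal of Ptprc, Coro1a and Laptm5 was 3.66 to 3.78 in young and 12.9 to 33.0 in aged liver, 25.1 to 26.2 and 56.7 to 72.8 in lung, 2.42 to 2.62 and 16.4 to 24.7 in kidney, and 6.47 to 19.7 and 34.9 to 51.7 in WAT. All 3 were called higher in liver, lung and kidney and 0 in WAT, where 10.5%, 2.72%, 20.6% and 2.01% of all genes were called higher, in that order of tissues. Of 12 macrophage markers, 11 were called higher in liver, 0 in lung, 9 of 11 tested in kidney and 3 of 11 in WAT, and Clec4f, the marker of Kupffer cells, was not well above background in kidney, WAT and young lung. Their summed signal was 102 to 135 in young and 405 to 525 in aged liver, 26.5 to 30.1 and 115 to 169 in kidney, 61.6 to 192 and 361 to 768 in WAT, and 144 to 185 and 123 to 346 in lung, where the ages overlapped. In lung, where Tlr1, Tlr6 and Tlr13 were called higher, the median change of the macrophage markers was 0.58 beside -0.08 for all genes, and 3 of 3 leukocyte, 5 of 6 T cell and 1 of 9 neutrophil markers were called higher. Their part in the result was not tested. B cell markers were called higher for 1 gene in liver, 0 in lung, 4 in kidney with 2 lower, and 4 in WAT, and T cell markers for 3, 5, 5 with 1 lower, and 4. Of the dendritic cell markers 3 of 6 were called higher in liver, 0 in lung, 5 in kidney and 0 in WAT, with Xcr1 well above background in no tissue, and of 4 plasma cell markers 2, 0, 3 and 2.

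Across the 24 arrays, which share tissues and ages, the log2 signal of most of these genes ran with the log2 of the summed macrophage markers. Pearson's r was 0.88 for Tlr13, 0.88 for Tlr6, 0.87 for Tlr8, 0.83 for Tlr1, 0.80 for Tlr2 and 0.74 for Tlr4. It was 0.51 for Tlr5, 0.14 for Tlr9, 0.13 for Tlr3 and 0.05 for the brightest Tlr7 probe, and 0.93 for the second Tlr7 probe. Taken as deviations from the group means, which leave out tissue and age, r was 0.83 for Tlr2, 0.67 for Tlr8, 0.61 for Tlr13, 0.59 for Tlr4, 0.57 for Tlr1 and 0.36 for Tlr6, with -0.45 for the brightest and 0.77 for the second Tlr7 probe. Tlr3 had 0.50, Tlr5 -0.11 and Tlr9 -0.072 in deviations. With the 3 leukocyte markers r over the arrays was 0.92 for Tlr2, 0.90 for Tlr6, 0.88 for Tlr4, 0.84 for Tlr13, 0.73 for Tlr8 and 0.71 for Tlr1, so Tlr2, Tlr4 and Tlr6 had higher values than with the macrophage markers and Tlr1, Tlr8 and Tlr13 lower ones. In deviations these were 0.66, 0.73, 0.89, 0.75, 0.75 and 0.24. For the same genes r over the arrays ran from 0.36 (Tlr1) to 0.67 (Tlr6) with the neutrophil markers. With the B cell markers it ran from 0.41 (Tlr8) to 0.74 (Tlr2), and with the T cell markers from -0.16 (Tlr4) to 0.34 (Tlr13). Tlr9 had 0.59 with the T cell markers. All these r values include the young WAT replicate 1. Its macrophage markers summed to 61.6, beside 192 and 151 on the other young WAT arrays, and its Tlr2, Tlr4 and Tlr7 values also lay apart. How far the r values rest on that array was not tested. The part of cell numbers in the changes with age was not tested.

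**Figure D5:**
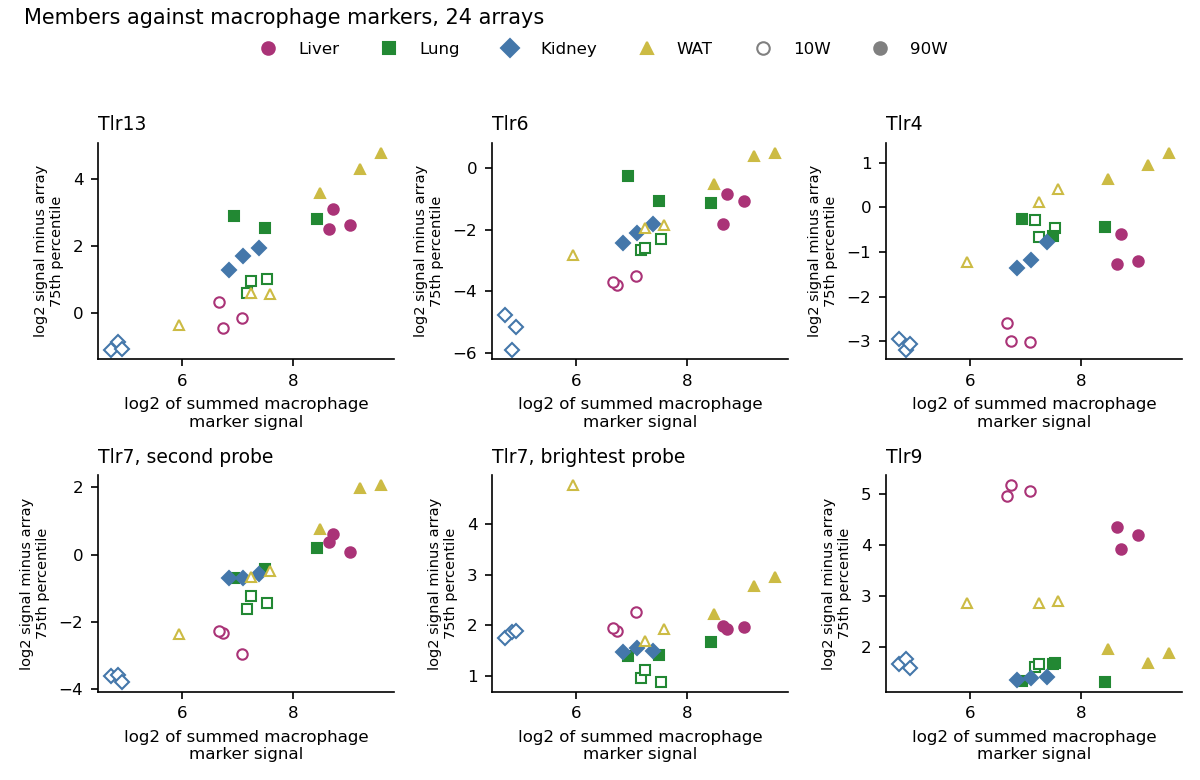
Log2 signal minus the array's 75th percentile (y axis) of Tlr13, Tlr6, Tlr4, the second and the brightest Tlr7 probe and Tlr9 against the log2 of the summed signal of the macrophage markers (x axis), 1 point per array, open for 10W and filled for 90W, with a symbol per tissue. Points of Tlr13, Tlr6 and the second Tlr7 probe rise together with the markers, and those of the brightest Tlr7 probe and of Tlr9 do not.

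The genes whose log2 signal over the 24 arrays was most like that of each receptor, among 17238 genes well above background on at least 12 arrays, differed by receptor. For Tlr6 they were Pirb (r = 0.985), Lilrb4a and Was, for Tlr13 A630001G21Rik (0.969), Ly9 and Gmip, for Tlr1 Ms4a7 (0.947), Nlrp1b and Trem2, and for Tlr2 Batf (0.960), Ptprc and Prex1. Tlr4 was closest to Serpinb6a (0.981), Serpinb6c and Tm6sf1, and Tlr5 to Aox1 (0.950), Nfix and Oxr1. Tlr3 was closest to Col4a6 (0.958), Scrn1 and Pcnx4, and Tlr9 to Sc5d (0.982), an enzyme of cholesterol synthesis, Sdr42e1 and Arf5. The brightest Tlr7 probe was closest to Cldn20 (0.943), Erich5 and Tas2r113, and without the young WAT replicate 1 the first of these fell to 0.856. By deviations from the group means the first gene was Mex3b for Tlr1 (0.839), Lyz2, a myeloid lysozyme, for Tlr2 (0.908), Apol7c for Tlr3 (0.892), Asphd1 for Tlr4 (0.920), Cep112 for Tlr5 (0.871), Gpsm3 for Tlr6 (0.865), Esrp2 for the brightest Tlr7 probe (0.975), 9330175M20Rik for Tlr9 (0.854) and Arpc1b for Tlr13 (0.941). Such likeness describes the values on these arrays.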

How the data were processed

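Total RNA of each tissue was hybridised to 1-colour Agilent arrays, and the authors deposited spot intensity values from Agilent Feature Extraction (version 11.0.1.1 per the labels), with background subtraction and signal processing already done by that program. The files' headers name a mouse array design, while the methods name a human kit. The members and the lists of pathway and marker genes were chosen with earlier results of these data known, and the lists for epididymis and epithelium were added after the data were seen.

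Control spots and the 1841 spots flagged as outliers (at most 135 per array) were left out, spots of a probe were averaged, and log2 of the processed signal was reduced by each array's 75th percentile. Accessions without version were matched to RefSeq symbols (32994 of 56605 probes, 58.3%). A probe was kept in a tissue if 3 or more of its 6 arrays had it well above background, and the brightest probe stood for each gene. Ages were compared within each tissue with limma 3.58.1 in R 4.3.3 (lmFit and eBayes) and Benjamini-Hochberg adjustment over all genes of the tissue, with a threshold of 0.05. Levels between young tissues and differences of age changes came from 1 fit of the 24 arrays in 8 groups over 34761 genes or other targets. An exact permutation test of 3 arrays against 3 cannot go below 0.1, so no single gene was tested that way. Where nothing ties arrays to separate animals, p-values measure only the spread between these arrays, and the number of arrays limits the precision.

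All 10 members were named in every tissue, with genes of the fixed lists and, for members well above background on at least 12 arrays, the 3 genes of highest Pearson correlation. The script was tested on simulated data. The alternatives were normexp background correction (offset 16), quantile normalization, median centring, scaling to 7 spike-in probes, no filter, the mean of probes, other probes, 1 probe over 24 arrays, a trend and robust fit, a replicate block, the methods' t-test, 1 fit of all arrays and leaving out each array. The files hold no result of the authors' comparisons.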

Additional observations from a re-analysis of the deposited data

Results flagged for a closer look

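The change with age differed between tissues in 16 cases by the interaction test of limma over the 24 arrays (log2 scale, adjusted over all genes of a pair of tissues), and the 6 pairs share arrays. For liver minus lung the differences were 2.05 for Tlr1, 1.80 for Tlr2, 1.81 for Tlr4 and -0.69 for Tlr9 (adjusted p = 0.0152, 0.0161, 0.0111 and 0.0142). For liver minus kidney they were -2.16 for Tlr5, which lay lower in aged liver and higher in aged kidney without passing in either, and -0.63 for Tlr9 (adjusted p = 0.0303 and 0.0294). For lung minus kidney they were -1.84 for Tlr1, -3.12 for Tlr2, -0.87 for Tlr3, -1.94 for Tlr4 and -1.49 for Tlr6 (adjusted p = 0.0194, 0.000226, 0.0251, 0.005 and 0.0434). For lung minus WAT they were 0.81 for Tlr9 and -2.06 for Tlr13 (adjusted p = 0.0159 and 0.0118). For kidney minus WAT they were 1.42 for Tlr2, 0.74 for Tlr9 and -1.30 for Tlr13 (adjusted p = 0.0363, 0.00658 and 0.0358). Without the young WAT replicate 1, Tlr2 (1.93) and Tlr9 (0.75) were still called between kidney and WAT, and Tlr13 (-0.99) was not. With spike-in scaling Tlr9 lost its call in liver minus lung (-0.48, adjusted p = 0.443), liver minus kidney (-0.91, adjusted p = 0.0955) and lung minus WAT (0.70, adjusted p = 0.349), and Tlr13 in kidney minus WAT (-0.91, adjusted p = 0.219). With quantile normalization Tlr9 lost it in liver minus lung (-0.39, adjusted p = 0.123) and liver minus kidney (-0.45, adjusted p = 0.0993). No group has over 3 arrays, so no rule screened single arrays as outliers here. The young WAT replicate 1 was singled out after the data were seen.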

How the results depend on the processing

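Changes of single genes kept direction and call in 539 of the alternative values, lost the call in 74, gained it in 8 and turned in 26, and differences between tissues kept them in 339, lost the call in 31 and turned in 1. Tlr1, Tlr2, Tlr4, Tlr6 and Tlr13 were called higher in liver and kidney under all of their 17 or 18 alternatives. Tlr13 was called in 15 of 18 in lung and 14 of 18 in WAT, while in lung Tlr1 was called in 8 of 18 and Tlr6 in 11 of 17, and in WAT Tlr1 in 9 of 18, Tlr6 in 7 of 17, Tlr8 in 8 of 17 and Tlr9 in 7 of 17. Tlr9 was called in 13 of 17 in liver.

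Spike-in scaling moved the median of all genes from -0.20 to -0.09 in liver, -0.08 to -0.18 in lung and -0.23 to 0.16 in kidney, and the split of all genes called higher and lower from 2928 and 4749 to 2516 and 973 in liver and from 6483 and 13410 to 9283 and 4392 in kidney. Under it 0 members were lower in liver and 0 in kidney, 9 differed between young liver and WAT, and 1 between liver and kidney and 1 between lung and WAT in the change with age. Lower calls in liver were 2 with normexp and 2 in the fit of all arrays, and in kidney 0 with quantile normalization, 1 with the mean of probes and 0 in the fit of all arrays. Higher calls in lung were 1 with no filter, 1 by the methods' t-test after adjustment and 5 before it. In WAT they were 2 with quantile normalization, 1 with no filter and 0 by the methods' t-test, and lower calls there were 0 with median centring, no filter or the methods' t-test. Differences of age changes between liver and kidney were 0 with normexp, 1 with quantile normalization and 0 with median centring, between liver and WAT 1 with normexp, between lung and kidney 3 and between lung and WAT 1 with median centring. The cause of these shifts was not tested.

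Same-numbered young and aged arrays of a tissue correlated at -0.20 to 0.11 in their deviations from the group means, over 0.1 in 1 of 11 comparisons. Those of different tissues at the same age correlated at -0.15 to 0.29, over 0.1 in 6 of 33. The highest, 0.29, was that of the second aged liver and lung arrays, which also had the highest neutrophil markers of their groups. These values cannot tell whether tissues shared mice, and the tests between tissues took the arrays as independent. With the replicate number as a block, calls were 5 higher and 0 lower in liver, 0 higher in lung, 6 and 2 in kidney, and 0 higher and 0 lower in WAT, and liver and WAT differed in 1 change with age.

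With 1 array left out, calls ranged from 0 to 2 lower in liver, 0 to 3 higher in lung, 6 to 7 higher and 1 to 2 lower in kidney, and 0 to 2 higher and 0 to 0 lower in WAT. Counts between young tissues ranged from 6 to 7 (liver and lung), 5 to 6 (liver and kidney), 4 to 7 (liver and WAT), 6 to 7 (lung and kidney), 3 to 5 (lung and WAT) and 8 to 9 (kidney and WAT), and those of changes with age from 4 to 5, 0 to 2, 0 to 2, 2 to 5, 2 to 4 and 1 to 4 in the same order.

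The values that turned were, for Tlr7 in liver, 0.010 with quantile normalization, 0.041 with spike-in scaling, 1.40 with the mean of probes, 0.041 without young replicate 2 (-0.14 to 0.041 over the arrays left out) and 2.88 by the second probe, in kidney 0.067, 1.34 and 3.0 with spike-in scaling, the mean of probes and the second probe, and in WAT 1.31 with the mean of probes, 0.83 without young replicate 1, 0.067 without aged replicate 2 (-0.69 to 0.83 over the arrays left out) and 2.77 by the second probe. Tlr3 gave -0.083 in liver with normexp, 0.0038 and 0.35 in lung with the mean of probes and the other probe, and -0.15, -0.0043 and -0.036 in WAT without young replicate 1, aged replicate 1 and aged replicate 2 (-0.15 to 0.12 over the arrays left out). Tlr4 in lung gave -0.029 with normexp, -0.076 with spike-in scaling and -0.070 and -0.067 without young or aged replicate 2 (-0.070 to 0.12 over the arrays left out). Tlr5 in WAT gave 0.028, 0.0054 and 0.29 without young replicate 2, aged replicate 1 and aged replicate 3 (-0.53 to 0.29 over the arrays left out), and its young difference between liver and lung was -0.32 with spike-in scaling. Tlr9 in kidney gave 0.11 with spike-in scaling. Signals not well above background limit Tlr8 outside WAT and on the young WAT replicate 1, and Tlr5 and Tlr6 in young kidney.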

Other observations

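Neighbouring genes were compared as values. Tlr1 and Tlr6, which lie side by side, correlated at r = 0.84 over the 24 arrays, and Tlr7 by its brightest probe and its neighbour Tlr8 at 0.22. Tlr9 correlated at 0.74 with its neighbour Alas1, an enzyme of heme synthesis, and at -0.72 with Twf2 on its other side, while Tlr3 had -0.73 with Sorbs2. These arrays share tissues and ages. On the young WAT replicate 1 the epididymal genes Lcn5 and Crisp1 had log2 signals of 8.76 and 7.58, where the highest values on the other arrays were -2.60 and -1.37. The same array held the highest Tlr7 value of the 24 by the brightest probe, 4.76, and the lowest value of the second Tlr7 probe in WAT, -2.35.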
